A study of Penicillium oxalicum with 6 samples.

Results

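The genes described here are those of Penicillium oxalicum that were transcribed at a measurable level in the parental strain and were near or at 0 in the strain in which POc04478 was silenced. A gene was taken as switched off when its level was below 1 FPKM in each of the 3 silenced libraries and at least 3 FPKM in each of the 3 parental libraries. FPKM is a count of sequenced fragments scaled by the length of the transcript and the size of the library. Of 9822 genes with a locus tag, 12 met these limits. They were POX_a00809, POX_a00845, POX_a00912, POX_a01848, POX_b02370, POX_c04218, POX_d05586, POX_d05886, POX_g09128, POX_g09175, POX_g09289 and POX_h09854. The genes were thus chosen by their FPKM values in all 6 libraries, so their levels and their difference between the strains are given as a description, without a test.

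The silenced libraries (n = 3) came from mycelium with the label of POc04478 silencing after 5 μM copper ions had been added, in a strain background named ΔPoxKu70 in the title of the series. The parental libraries (n = 3) are titled PoxKu70, the same deletion background, but their genotype label reads WT, and the labels do not say whether these cultures received copper. Silencing and copper therefore cannot be told apart here. Both strains grew for 24 h in glucose medium and then for 24 h in a medium for enzyme production, whose carbon source is Avicel, a microcrystalline cellulose, in the protocol and raw starch in the treatment labels. Neither the working of the silencing construct nor whether the strain is 1 clone could be learned from the labels.

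Penicillium oxalicum is a filamentous fungus that secretes cellulases and amylases. Such fungi transcribe many of their genes under particular conditions only, for example in response to a carbon source, a metal or a developmental signal, and the genes of 1 biosynthetic pathway often lie side by side on a chromosome. Ku70 takes part in non-homologous end joining, and fungal strains without it are used because introduced DNA then integrates at its intended place more often. In locus tags of this species the letter stands for the chromosome and the number runs along it, so genes with neighbouring numbers are neighbours. The reference table names neither products nor functions for the 12 genes, and none is assigned here.

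Each library had between 9737 and 9937 of 10899 listed IDs above 0. The number of fragments per library is not recorded, but the steps of low values put the relative depth at 1.05, 1.58 and 1.34 in silenced replicates 1, 2 and 3, against 1, 1.45 and 1.16 in parental replicates 1, 2 and 3. The silenced libraries were thus estimated to be no shallower than the shallowest parental one. How many fragments a listed value of 0 could hide is unknown. The targeted gene, POX_c04478 on chromosome III, had 15.9, 17.8 and 19.0 FPKM in the silenced libraries, against 159, 116 and 131 FPKM in the parental libraries. Its log2 fold change was -2.87 ± 0.15 (SE; limma adjusted p = 0.00012), and it kept 13.0% of its parental mean. It was therefore reduced but far above the limit of 1 FPKM, and is not among the 12 genes.

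**Figure D1:**
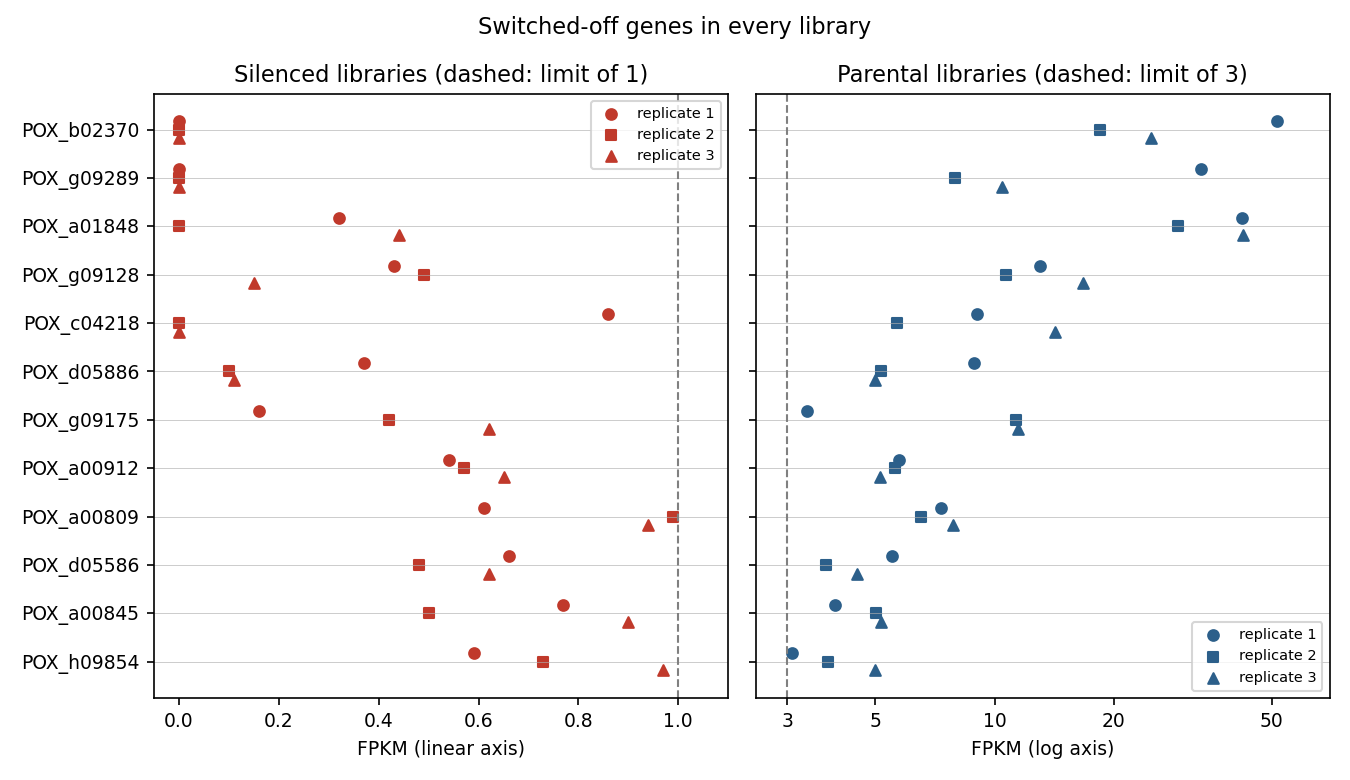
FPKM of the 12 switched-off genes in every library, with silenced libraries in the left panel (linear axis) and parental libraries in the right panel (log axis). Each symbol is 1 library, genes are ordered by the percentage of the parental mean left, and the dashed lines mark the limits of 1 and 3 FPKM. POX_b02370 and POX_g09289 lie at 0 in all 3 silenced libraries.

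Most of the 12 genes had low parental levels. Their parental means ran from 3.97 to 37.8 FPKM with a median of 7.98 FPKM, against a median of 40.5 FPKM over the 7562 other tagged genes with at least 3 FPKM in each parental library. The silenced limit leaves out genes that fell strongly but from a high level. This difference is therefore partly set by the rule. In the ranking of all tagged genes by parental mean the 12 genes stood between the percentiles 21.5 and 59.6. POX_a01848 and POX_b02370 lay above the median of 26.2 FPKM over all tagged genes, and the other 10 lay below it. In the silenced libraries their means ran from 0 to 0.847 FPKM. Of the 36 silenced values, 9 were listed at 0. Together the 12 genes summed to 5.31, 4.28 and 5.40 FPKM in silenced replicates 1, 2 and 3, against 187, 113 and 153 FPKM in parental replicates 1, 2 and 3. In RNA from whole mycelium, fewer hyphae that transcribe a gene and less RNA per hypha cannot be told apart.

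Only 2 of the 12, POX_b02370 and POX_g09289, were listed at 0 in every silenced library. POX_b02370 on chromosome II was listed at 0 in silenced replicates 1, 2 and 3 and had 51.5, 18.4 and 24.9 FPKM in parental replicates 1, 2 and 3. Its parental mean, 31.6 ± 17.6 FPKM (SD, n = 3), was the second highest of the 12. POX_g09289 on chromosome VII was also listed at 0 in all silenced libraries and had 33.1, 7.94 and 10.5 FPKM in parental replicates 1, 2 and 3. Both genes were highest in parental replicate 1, by 2.38 and 3.60 times the mean of parental replicates 2 and 3. Without that library the parental mean of POX_g09289 was 9.20 FPKM, against 17.2 FPKM with it. No fold is given for either gene, since 0 FPKM has no known counting limit.

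In 5 further genes less than 5% of the parental mean was left. POX_a01848 on chromosome I had 0.32, 0 and 0.44 FPKM in silenced replicates 1, 2 and 3, against 42.0, 29.0 and 42.4 FPKM in parental replicates 1, 2 and 3. It had the highest parental mean of the 12, 37.8 ± 7.64 FPKM (SD, n = 3), and 0.670% of it was left, or 1.01% without silenced replicate 2. The parental values lay within 1.46 times of each other, with parental replicate 2 the lowest.

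POX_g09128 on chromosome VII had 0.43, 0.49 and 0.15 FPKM in silenced replicates 1, 2 and 3, against 13.0, 10.7 and 16.7 FPKM in parental replicates 1, 2 and 3, so that 2.65% was left. POX_g09175, 47 tag numbers further along the same chromosome, had 0.16, 0.42 and 0.62 FPKM in the silenced libraries, against 3.36, 11.3 and 11.4 FPKM in the parental libraries, so that 4.59% was left. In POX_g09175, replicate 1 was the lowest library of each strain.

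POX_d05886 on chromosome IV had 0.37, 0.10 and 0.11 FPKM in silenced replicates 1, 2 and 3, against 8.87, 5.18 and 5.01 FPKM in parental replicates 1, 2 and 3. In this gene 3.04% was left, and 1.65% without silenced replicate 1. POX_c04218 on chromosome III had 0.86, 0 and 0 FPKM in the silenced libraries, against 9.03, 5.68 and 14.2 FPKM in the parental libraries. Its 2.97% came from silenced replicate 1 alone, as the other two silenced libraries were listed at 0, and it was 4.46% without silenced replicate 2 or 3.

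The other 5 genes kept between 10.7% and 19.2% of their parental means, with no silenced value at 0. POX_a00912 on chromosome I had 0.54, 0.57 and 0.65 FPKM in silenced replicates 1, 2 and 3, against 5.73, 5.62 and 5.15 FPKM in parental replicates 1, 2 and 3. POX_a00809 on chromosome I had 0.61, 0.99 and 0.94 FPKM in the silenced libraries, against 7.35, 6.52 and 7.87 FPKM in the parental libraries. The replicates of these 2 genes were the closest together of the 12 in the parental strain.

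POX_a00845, between them on chromosome I, had 0.77, 0.50 and 0.90 FPKM in silenced replicates 1, 2 and 3, against 3.96, 5.02 and 5.18 FPKM in parental replicates 1, 2 and 3. POX_d05586 on chromosome IV had 0.66, 0.48 and 0.62 FPKM in the silenced libraries, against 5.51, 3.75 and 4.51 FPKM in the parental libraries. POX_h09854 on chromosome VIII had 0.59, 0.73 and 0.97 FPKM in the silenced libraries, against 3.09, 3.81 and 5.01 FPKM in the parental libraries, and its 19.2% was the highest share left. Of these genes, POX_h09854 lay near both limits, POX_d05586 near the parental limit and POX_a00845 near the silenced limit. Reduced rather than absent transcript describes the values of POX_a00809, POX_a00845, POX_a00912, POX_d05586 and POX_h09854.

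All 12 genes passed the filter of the fit over all IDs, at least 1 FPKM in at least 3 of 6 libraries, through the parental libraries alone. In that fit (limma on log2(FPKM + 1), called at an adjusted p under 0.05) all 12 were called lower in the silenced libraries, where 30.4% of the 9341 tested IDs were called lower, and nothing is read from this because the same values chose the genes. Their log2 fold changes ran from -4.95 to -1.48, and the median over all tested IDs was -0.12.

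**Figure D2:**
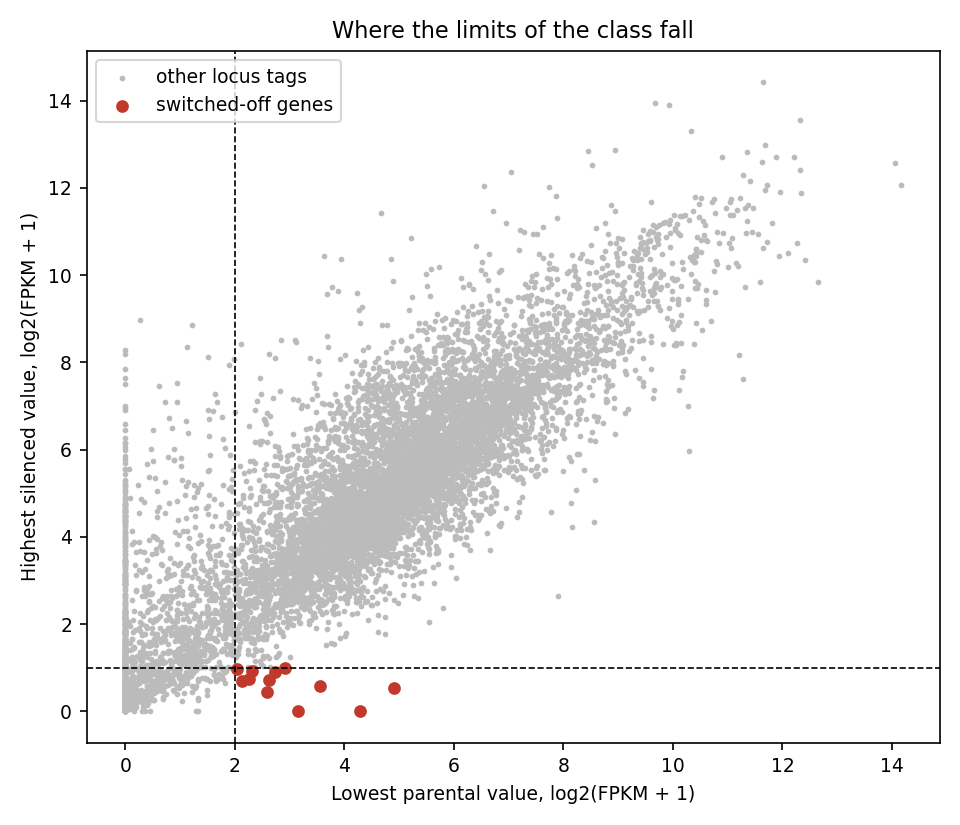
The lowest parental value of every tagged gene (horizontal) against its highest silenced value (vertical), both as log2(FPKM + 1). Dashed lines mark the limits of 3 FPKM (parental) and 1 FPKM (silenced). The 12 switched-off genes (red) form the edge of a continuous cloud rather than a separate group, apart from POX_a01848, POX_b02370, POX_g09128 and POX_g09289, which lie further out.

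Several genes missed the class narrowly. Nearest below the parental limit was POX_c03533, with 0.70, 0.77 and 0.99 FPKM in silenced replicates 1, 2 and 3, against 2.80, 3.95 and 3.30 FPKM in parental replicates 1, 2 and 3. It was followed by POX_f08347 and POX_a01452, whose lowest parental values were 2.55 and 2.54 FPKM. Nearest above the silenced limit were POX_f08462 and POX_b02384, each with 1.02 FPKM as the highest silenced value, and POX_a00612 with 1.03 FPKM. Just inside the limits, POX_h09854 had a lowest parental value of 3.09 FPKM and POX_a00809 a highest silenced value of 0.99 FPKM. POX_g09175 and POX_d05586 followed at the parental limit, with 3.36 and 3.75 FPKM, and POX_h09854 and POX_a00845 at the silenced limit, with 0.97 and 0.90 FPKM.

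The limits select by level as well as by the size of the change. Of the tagged genes with at least 3 FPKM in each parental library, 193 that are not among the 12 kept no more than the 19.2% of POX_h09854, but had at least 1 FPKM in some silenced library. Their median level was 9.19 FPKM in the silenced libraries, against 68.6 FPKM in the parental libraries. Ranked by the percentage left among the 7574 genes at or above the parental limit, POX_b02370, POX_g09289 and POX_a01848 held the lowest places. They were followed by POX_e07319, which kept 1.20% but had 5.24, 1.33 and 3.46 FPKM in silenced replicates 1, 2 and 3, against 343, 239 and 257 FPKM in parental replicates 1, 2 and 3. POX_g09128, POX_c04218, POX_d05886 and POX_g09175 stood at ranks 5, 6, 8 and 13, and the 5 genes with the largest shares left at ranks 51 to 205. The mirror class, genes at 3 FPKM or more in each silenced library and below 1 FPKM in each parental library, held 38 genes, 0.498% of those at 3 FPKM in each silenced library. The 12 switched-off genes were 0.158% of those at 3 FPKM in each parental library. The difference between these shares was not tested.

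**Figure D3:**
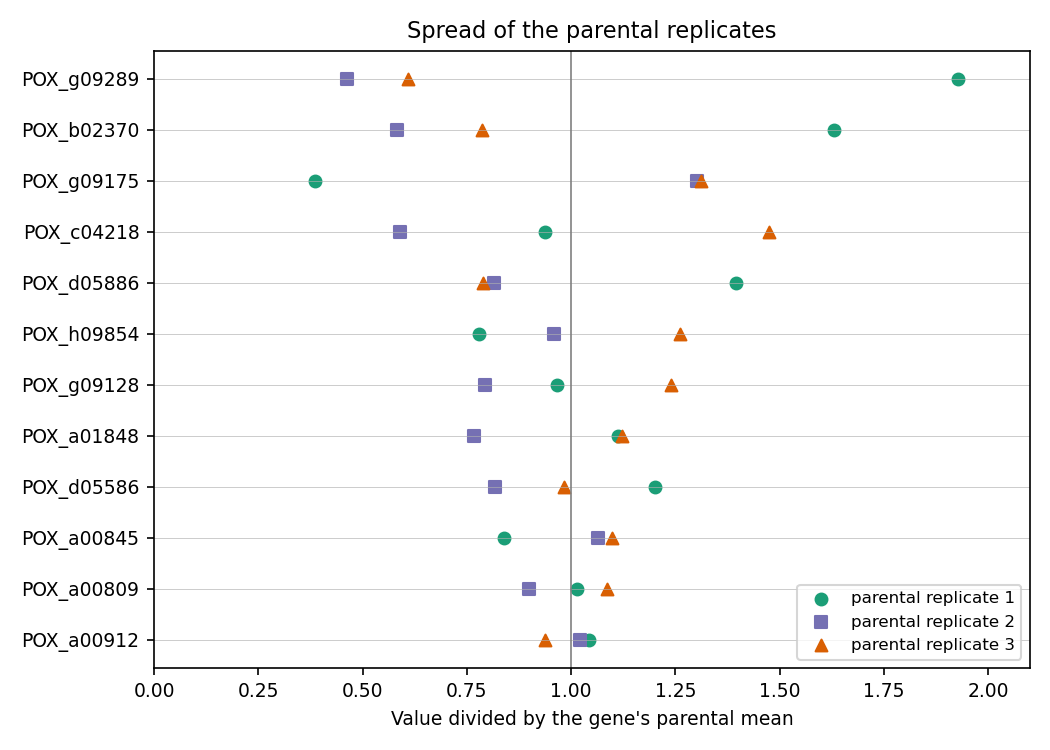
Each parental library's FPKM of the 12 genes divided by that gene's parental mean, with genes ordered by their coefficient of variation (largest at the top). Parental replicate 1 stands far above the other two in POX_g09289 and POX_b02370 and far below them in POX_g09175.

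The spread between parental replicates differed widely among the 12 genes. The coefficient of variation, the SD divided by the mean over the 3 parental libraries, was 5.60% in POX_a00912 and 9.40% in POX_a00809, but 53.2% in POX_g09175, 55.5% in POX_b02370 and 80.7% in POX_g09289. The median over the 12 was 23.5%, against 17.7% over the 7562 other genes at or above the parental limit. These groups were not matched for level, as their median parental means were 7.98 and 40.5 FPKM. Whether the larger spread goes with the lower level was not tested. The highest parental value was 1.11 times the lowest in POX_a00912 and 4.17 times in POX_g09289. Among the 12, 7 were highest in parental replicate 3, 5 in parental replicate 1 and 0 in parental replicate 2. Of the other genes, 25.9%, 44.4% and 29.7% were highest in parental replicates 3, 1 and 2. After median-of-ratios scaling, which sets the libraries to a common median ratio, these counts among the 12 were 4, 5 and 3, so the absence of parental replicate 2 depended on the scale of the libraries.

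The 12 genes were scattered along the genome. By tag letter, 4 lay on chromosome I, 3 on chromosome VII, 2 on chromosome IV and 1 each on chromosomes II, III and VIII, and 0 on chromosomes V and VI, which hold 1169 and 1178 of the tagged genes. Chromosomes I, VII, IV, II, III and VIII hold 1918, 840, 1348, 1527, 1290 and 531 of them, and the distribution was not tested. None of the 12 genes had another of the 12 within 5 or 10 tag numbers. The nearest pair, POX_a00809 and POX_a00845, was 36 tag numbers apart. POX_a00912 followed 67 further on, so that 3 of the 12 fell within this stretch of chromosome I, and POX_a01848 lay 936 beyond. On chromosome VII, POX_g09128 and POX_g09175 were 47 apart and POX_g09289 lay 114 beyond. The pair on chromosome IV was 300 apart. By gene order none was at a chromosome end, the nearest being POX_h09854, with 56 genes between it and the end of chromosome VIII, followed by POX_a01848 with 85 and POX_g09289 with 87. In the mirror class 7 of 38 genes had another of that class within 5 tag numbers, a difference that was not tested.

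**Figure D4:**
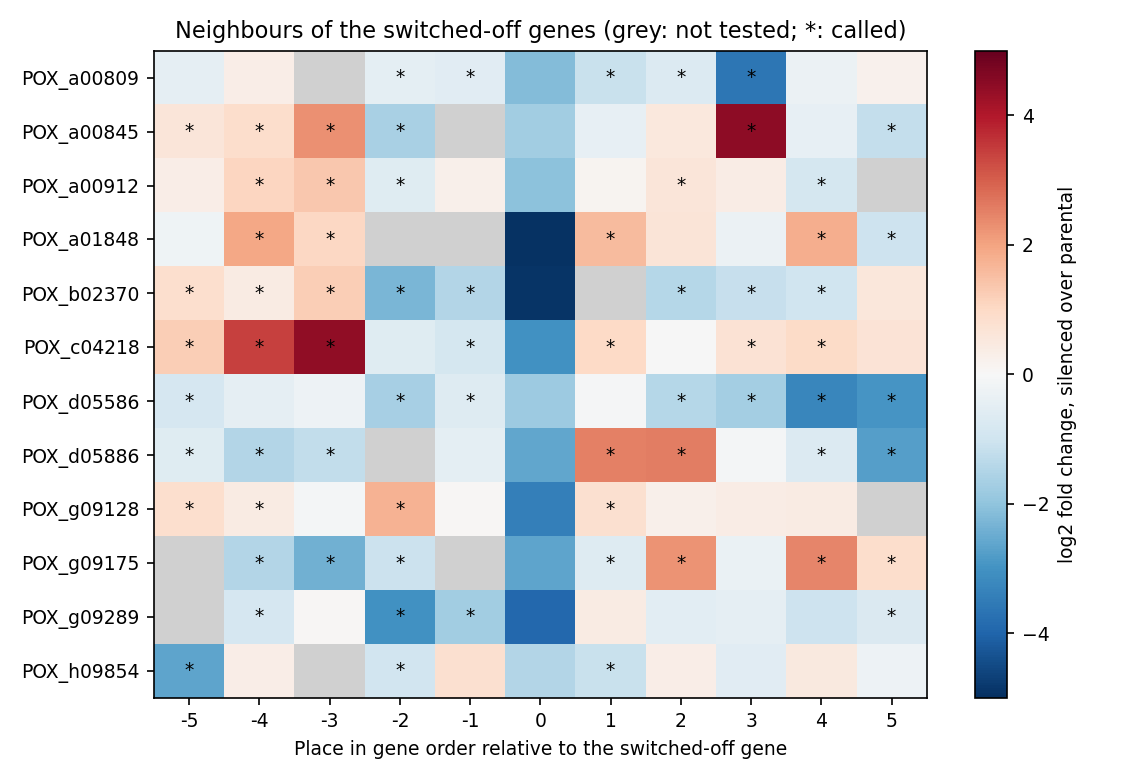
Log2 fold change, silenced over parental, of the 5 protein-coding genes on either side of each switched-off gene (place 0). Blue is lower and red higher in the silenced libraries, grey genes were too low to be tested, and asterisks mark neighbours called by limma. Rows such as POX_d05586 are blue on most places, whereas the rows of POX_g09128 and POX_a01848 hold blue centres with mostly red or pale neighbours.

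Although no pair of the 12 lay together, some had neighbours that fell with them, others lay beside genes that rose, and several had both. The neighbours took no part in choosing the 12, but they were chosen for description after their values were seen. Within 2 places on either side, 42 of 48 neighbours were tested, of which 19 were called lower (45.2%), 8 higher and 15 were not called. Over all tested IDs, 30.4% were called lower and 24.4% higher. After median-of-ratios scaling the balance over all tested IDs turned, to 2430 lower and 2631 higher of 9335. That of the neighbours did not turn, with 16 (38.1%) called lower and 10 higher. The count of lower neighbours dropped when a silenced library was left out, to 12 (28.6%) without replicate 1 and to 11 (26.2%) without replicate 2, where 21.7% and 20.8% of all tested IDs were called lower. Within 5 places, 39 of 108 tested neighbours were called lower (36.1%) and 29 higher (26.9%), closer to the background. As 54.8% of all tested IDs were called in 1 direction or the other, the counts given below for single genes are a description only. Adjoining genes can share reads where their transcripts overlap. The labels state no strand-specific step, so such reads could not be told apart.

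POX_d05586 lay in the stretch with the most neighbours called lower, 7 of 10 within 5 places, and 0 called higher. Beyond it, POX_d05590 had 8.80, 12.4 and 14.9 FPKM in silenced replicates 1, 2 and 3, against 304, 73.4 and 79.4 FPKM in parental replicates 1, 2 and 3 (log2 fold change -3.26 ± 0.55 (SE), limma adjusted p = 0.0028). POX_d05591 beside it had a log2 fold change of -2.94. POX_d05588 and POX_d05589, between them and POX_d05586, were also called lower, at -1.41 and -1.71. All 4 were highest in parental replicate 1, without which the log2 fold changes of POX_d05588, POX_d05589, POX_d05590 and POX_d05591 were -0.93, -1.36, -2.60 and -2.32. The call of POX_d05588 was lost without silenced replicate 1, 2 or 3 (limma adjusted p = 0.062, 0.065 and 0.060). POX_d05587, directly beside POX_d05586, had 29.2, 28.7 and 29.8 FPKM in the silenced libraries, against 30.02, 30.75 and 30.12 FPKM in the parental libraries, and was not called.

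All 3 tested genes within 2 places of POX_b02370 fell. POX_b02368 had 293 ± 56.0 FPKM in the silenced libraries, against 1426 ± 265 FPKM in the parental libraries (SD, n = 3 each; limma adjusted p = 0.00034). POX_b02369, directly beside POX_b02370, had 139 ± 32.2 and 383 ± 26.3 FPKM in the silenced and the parental libraries. POX_b02372 and POX_b02373 on the other side had log2 fold changes of -1.41 and -1.17. At 3 to 5 places on the first side, POX_b02367, POX_b02366 and POX_b02365 were called higher, with log2 fold changes of 1.22, 0.43 and 0.84. The call of POX_b02366 was lost with the replicate block and without any 1 library other than parental replicate 1 (limma adjusted p = 0.067 to 0.12). In all, 5 of 9 tested neighbours within 5 places of POX_b02370 were called lower and 3 higher.

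All 4 genes within 2 places of POX_a00809 fell as well, each by less than POX_a00809 itself (log2 fold change -2.16). On one side POX_a00808 and POX_a00807 had log2 fold changes of -0.57 and -0.48. On the other side POX_a00810 and POX_a00812 had -1.10 and -0.69. The third gene on that side, POX_a00813, had 2.95, 4.19 and 4.08 FPKM in silenced replicates 1, 2 and 3, against 60.4, 57.0 and 54.4 FPKM in parental replicates 1, 2 and 3 (log2 fold change -3.63 ± 0.15 (SE), limma adjusted p = 6.5e-05). It fell 15.3-fold but stayed above the silenced limit.

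Beside POX_g09289, POX_g09287 had 11.6 ± 2.72 FPKM in the silenced libraries, against 103 ± 31.0 FPKM in the parental libraries, and POX_g09288 had 529 ± 136 FPKM, against 1842 ± 720 FPKM (SD, n = 3 each; limma adjusted p = 3e-04 and 0.0058). The 2 genes on its other side, POX_g09290 and POX_g09291, were not called. POX_h09855, beside POX_h09854, fell with a log2 fold change of -1.11.

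POX_d05886 had neighbours of both kinds, 5 of 9 tested within 5 places called lower and 2 higher. The 2 higher ones lay next to it. POX_d05887, directly beside POX_d05886, had 57.0, 55.9 and 37.9 FPKM in silenced replicates 1, 2 and 3, against 9.60, 6.06 and 8.24 FPKM in parental replicates 1, 2 and 3 (log2 fold change 2.51 ± 0.22 (SE), limma adjusted p = 0.00029). POX_d05888 next to it rose as well, by 2.56 on the log2 scale. The lower ones lay 3 to 5 places away on either side, among them POX_d05891, POX_d05882 and POX_d05883 at log2 fold changes of -2.77, -1.47 and -1.22.

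Around POX_a01848, 4 of 8 tested neighbours within 5 places were called higher and 1 lower. The tested gene adjoining POX_a01848, POX_a01849, rose 3.04-fold, to 218 ± 8.94 FPKM in the silenced libraries, against 71.6 ± 8.09 FPKM in the parental libraries (SD, n = 3 each). The other gene adjoining it, POX_a01847, was listed at 0 in 5 libraries and at 29.2 FPKM in parental replicate 1.

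Around POX_g09128 0 of 9 tested neighbours within 5 places were called lower and 4 were called higher, among them POX_g09126 and POX_g09129 at log2 fold changes of 1.72 and 0.79. Within 5 places of POX_g09175, 4 of 8 tested neighbours were called lower and 3 higher. POX_g09172, 3 places away, fell with a log2 fold change of -2.40, and POX_g09177, 2 places away on the other side, rose by 2.26 on the log2 scale.

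Near POX_c04218, 6 of 10 neighbours were called higher and 1 lower. POX_c04214, 3 places away, had 83.7, 107 and 136 FPKM in silenced replicates 1, 2 and 3, against 2.19, 4.43 and 6.13 FPKM in parental replicates 1, 2 and 3 (log2 fold change 4.44 ± 0.32 (SE), limma adjusted p = 2e-04). Directly beside POX_c04218, POX_c04219 rose by 1.02 on the log2 scale and POX_c04216 fell by 0.90, and POX_c04216 was not called without silenced replicate 2 (limma adjusted p = 0.059). At 3 places from POX_a00845, POX_a00848 had 817 ± 110 FPKM in the silenced libraries, against 37.0 ± 12.3 FPKM in the parental libraries (SD, n = 3 each; limma adjusted p = 0.00012), while POX_a00843 on the other side fell with a log2 fold change of -1.64. None of the 12 genes lay in a stretch where every tested neighbour within 5 places was called lower. Only 30.4% of all tested IDs were called lower, so nothing is read from this. Within 2 places, every tested neighbour of POX_a00809 and of POX_b02370 was called lower.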

How the data were processed

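Poly(A) RNA from mycelium was sequenced in 6 libraries, per the labels' protocols. The authors deposited 1 table of FPKM values per library, per the file headers. Of tools, bcl2fastq and HISAT2 are named, per the submitters' processing notes, with no version. For the counting program, genome build and annotation the entry is: not given in the sources used here. The files list 10899 IDs, of which 9822 are locus tags (a prefix in parental replicate 2 was removed) and 1077 are other IDs. Of the tags, 9718 matched the RefSeq table of assembly ASM172317v3, used for chromosome and gene order only. Its rows name no products, no sequences were given, and so product groups, protein features and promoters were not analysed here.

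The members and lists were chosen with earlier results of these data known. The rule was FPKM of at least 3 in each parental and below 1 in each silenced library. All 12 genes are named, with the 3 genes nearest outside each limit and neighbours chosen after their values were seen. Values of log2(FPKM + 1), which understate changes of low genes, were fitted in R 4.3.3 by limma 3.58.1 with a variance trend, without a block, for IDs at 1 FPKM or more in 3 of 6 libraries, with two-sided Benjamini-Hochberg adjusted p-values over all 9341 IDs. The fit was tested on simulated data, with changes planted only in IDs with a mean log2(FPKM + 1) above 3. That test does not cover changes in genes of lower level. Relative depth came from ratios between libraries of values from 0.15 to 1.2 FPKM, of which 455 of 5378 lay within 0.03 (log2) of the fitted ratios. Nothing in the labels tells if replicates were grown as separate cultures, and the p-values therefore cover only differences among these libraries, possibly technical ones.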

Additional observations from a re-analysis of the deposited data

How the results depend on the processing

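The number of switched-off genes followed the limits. It was 70, 28 and 3 with a parental limit of 1, 2 and 10 FPKM, 5 and 44 with a silenced limit of 0.5 and 2 FPKM, 2 when 0 was required in each silenced library, and 53 with the limits set on group means. It was 8 with a parental limit of 5 FPKM. Leaving out 1 library gave 13 to 21 genes, all 12 among them each time, with 20 without parental replicate 1 and 21 without silenced replicate 3, since fewer libraries have to meet the rule. Median-of-ratios scaling left 10, without POX_a00809, whose highest silenced value became 1.03 FPKM, and POX_h09854, whose lowest parental value became 2.93 FPKM. With a parental limit of 1 FPKM, 11 of the 70 genes had another within 5 tag numbers. At 5 and 10 FPKM the 8 and 3 genes left were all among the 12, so a count of 0 was fixed in advance. Without any 1 library, where 13 to 21 genes met the rule, this count was also 0. The 12 were among them each time, so only the added genes could have changed it.

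The number of IDs called changed was 5118, from 4562 to 5115 under the other settings of pseudocount, filter, scaling, block and trend, and from 3654 to 5690 without 1 library. Scaling gave a median of 0.0017 for the log2 fold changes of all IDs, against -0.12 as deposited, and 2631 IDs called higher and 2430 lower, against 2277 and 2841. Libraries of the same number did not deviate together in every pair (Pearson r across tested IDs 0.001, 0.029 and 0.123 for numbers 1, 2 and 3), so the numbers were not taken as pairs. The replicate block gave 4667 called IDs, and the 12 genes were called lower under it. Of 616 alternative values of single genes, 606 had the same sign and the same call. In 10, all of POX_b02366, POX_d05588 or POX_c04216, the call was lost. The 616 did not cover POX_a00807, POX_a00808 and POX_a00812. Whether their calls (limma adjusted p = 0.014, 0.027 and 0.017) held under these settings was not checked gene by gene. Among the 616, 148 were of the 12 genes, and all of these kept sign and call. Nothing is read from this or from the replicate block for the 12 genes, because the same values chose them. The named neighbours were picked after their values were seen, so their share is a description only. The settings for counts of neighbours were added after seeing the data. Because fragment numbers are unknown, no counting error can be given for the low silenced values.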

Other observations

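Of the 1077 IDs without a locus tag, which the rule leaves out, 12 met the same limits, with parental means from 3.58 to 78.2 FPKM. The mirror limits were met by 7 of these IDs. Of those 12, 2 were listed at 0 in each silenced library. The first had 20.8, 7.47 and 9.82 FPKM and the second 111, 18.0 and 16.1 FPKM in parental replicates 1, 2 and 3. Like POX_b02370 and POX_g09289, both were highest in parental replicate 1, at 2.40 and 6.51 times the mean of parental replicates 2 and 3. Among the 7562 other tagged genes at or above the parental limit, 195 (2.58%) reached a ratio of 2 there, and the median ratio was 1.03. Parental replicate 1 also had the lowest estimated relative depth, 1, against 1.45 and 1.16 in parental replicates 2 and 3, and its part in these ratios was not tested. The ratio of POX_b02370 to POX_g09289 was 1.56, 2.32 and 2.38 in parental replicates 1, 2 and 3.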
